A study of Mus musculus with 11 samples.

Results

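The miRNAs described here carry the numbers of families known for their place in neurons, and they were followed in mammary tissue. All plus-strand mouse miRNAs on the array named miR-9, miR-124, miR-128, miR-137 or miR-153 were taken, with any letter or star. The rule found 6 of the 334 mouse miRNAs, with 24 of the 1336 spots: miR-124a, miR-128a, miR-128b, miR-9, miR-137 and miR-153. They were selected by name and not by a threshold. miR-124a (mmu-miR-124a on the array) was put forward for its higher level in FVB glands, and its differences from FVB glands are therefore given as a description, with no test. The arrays held RNA from mammary glands of pregnant FVB mice (n = 2), Balb/C mice (n = 3) and mice of the mixed background FVB129B6 (n = 3), and from C3(1)/Tag mammary tumors (n = 3, written C3TAg). The C3(1)/Tag mice are of the FVB strain and express the SV40 T antigens from the C3(1) promoter. The gland mice carried no transgene that the labels name, no agent is named for any group, and the glands were taken late in pregnancy. The ages of the mice are not given in the sources used here. The titles of Balb/C replicates 2 and 3 could name the left and the right gland of 1 mouse, so that the p-values may measure partly technical spread.

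A miRNA guides an Argonaute protein to transcripts that pair with its seed, bases 2 to 8 from the 5' end, and lowers their stability and translation. miR-124 is the most abundant miRNA of many neurons, where it represses transcripts of other lineages. miR-9 acts in neural progenitors and their descendants, miR-128 is abundant in the brain and limits neuronal excitability, and miR-137 and miR-153 act in neuronal maturation and at synapses. A mammary gland is made of epithelium, fat, vessels and connective tissue with nerve fibers, while the cell bodies of those nerves lie outside it. In whole tissue, fewer cells of a type and less RNA per cell cannot be told apart.

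The probes are shown because they set what each spot can measure, and because they separate a pair of members that cannot be read apart from the others. Each sequence below is the part of the deposited probe that matches a miRNA, 5' to 3', with the complement of the seed in capitals.
miR-124a probe: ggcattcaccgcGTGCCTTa
miR-128a probe: aaaagagaccggttCACTGTGa
miR-128b probe: gaaagagaccggttCACTGTGa
miR-9 probe: catacagctagataACCAAAGa
miR-137 probe: ctacgcgtattcttaAGCAATAa
miR-153 probe: gatcacttttgtgaCTATGCAa
The probes of miR-128a and miR-128b differ by 1 base edit and hold the same seed complement, so that their signals are not independent and count as a single measurement of miR-128. No other member shared its seed with any of the 334 miRNAs, and the nearest other probe lay at least 8 base edits away for miR-124a and 9 for miR-9, miR-137 and miR-153. The mature sequences were read from RefSeq (GRCm38.p6) for 5 of the 6 names, with the seed in capitals.
miR-128-3p, for both miR-128 names: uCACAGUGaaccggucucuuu
miR-9-5p: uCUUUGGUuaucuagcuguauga
miR-137-3p: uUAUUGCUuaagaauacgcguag
miR-153-3p: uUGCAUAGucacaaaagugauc
miR-128-3p comes from Mir128-1 (chr1:128202404-128202424, plus strand) and Mir128-2 (chr9:112118644-112118664, minus strand). miR-9-5p comes from Mir9-1 (chr3:88215613-88215635), Mir9-2 (chr13:83738821-83738843) and Mir9-3 (chr7:79505279-79505301), all on the plus strand. Mir137 (chr3:118433901-118433923) and Mir153 (chr12:117250860-117250881), also on the plus strand, are single loci. miR-124a is named only.

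Every spot has a green and a red intensity. The green one is the signal that the study used. The median green intensity of an array was 188.5 and 245.5 for FVB glands, 508 to 671.5 for the other glands and 125 to 170 for the tumors. The negative controls had green medians of 14.1 to 21.6 on gland arrays and 117 to 163 on tumor arrays. The scanning program calls each spot well above background or not, and a miRNA took that call where at least 50% of its 4 spots had it. This held in green for 209 to 262 of the 334 miRNAs on gland arrays and for 15 to 64 on tumor arrays. All 8 gland arrays shared a slide, with both FVB arrays alone in its last column. The tumor arrays shared another slide, read with another program version, so that tumor and slide cannot be told apart. The epithelial markers miR-141, miR-200a, miR-200b, miR-200c, miR-203, miR-205 and miR-429 had the call on every gland array, 7 of 7. On a tumor array 1 to 4 of the 7 had it, and miR-141, miR-200b and miR-203 had it on none.

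Of the 6 members, 4 were well above background in green on gland arrays and none on tumor arrays. On gland arrays their green signal was a small share of the red one. It was 0.50% to 1.08% for miR-124a, 0.49% to 2.00% for miR-9, 2.78% to 5.97% for miR-128a and 2.87% to 6.20% for miR-128b. Whether red signal enters the green one was not tested. miR-124a, miR-128a and miR-128b were well above background in green on 8 of 8 gland arrays, with all 32 spots called for each. miR-9 was so on 7 of 8, the exception being FVB replicate 2, with 24 of its 32 spots called. miR-137 and miR-153 were so on 0 of 8, with 0 of 32 spots called for each. On the 3 tumor arrays none of the 6 members had a single green spot well above background.

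**Figure D1:**
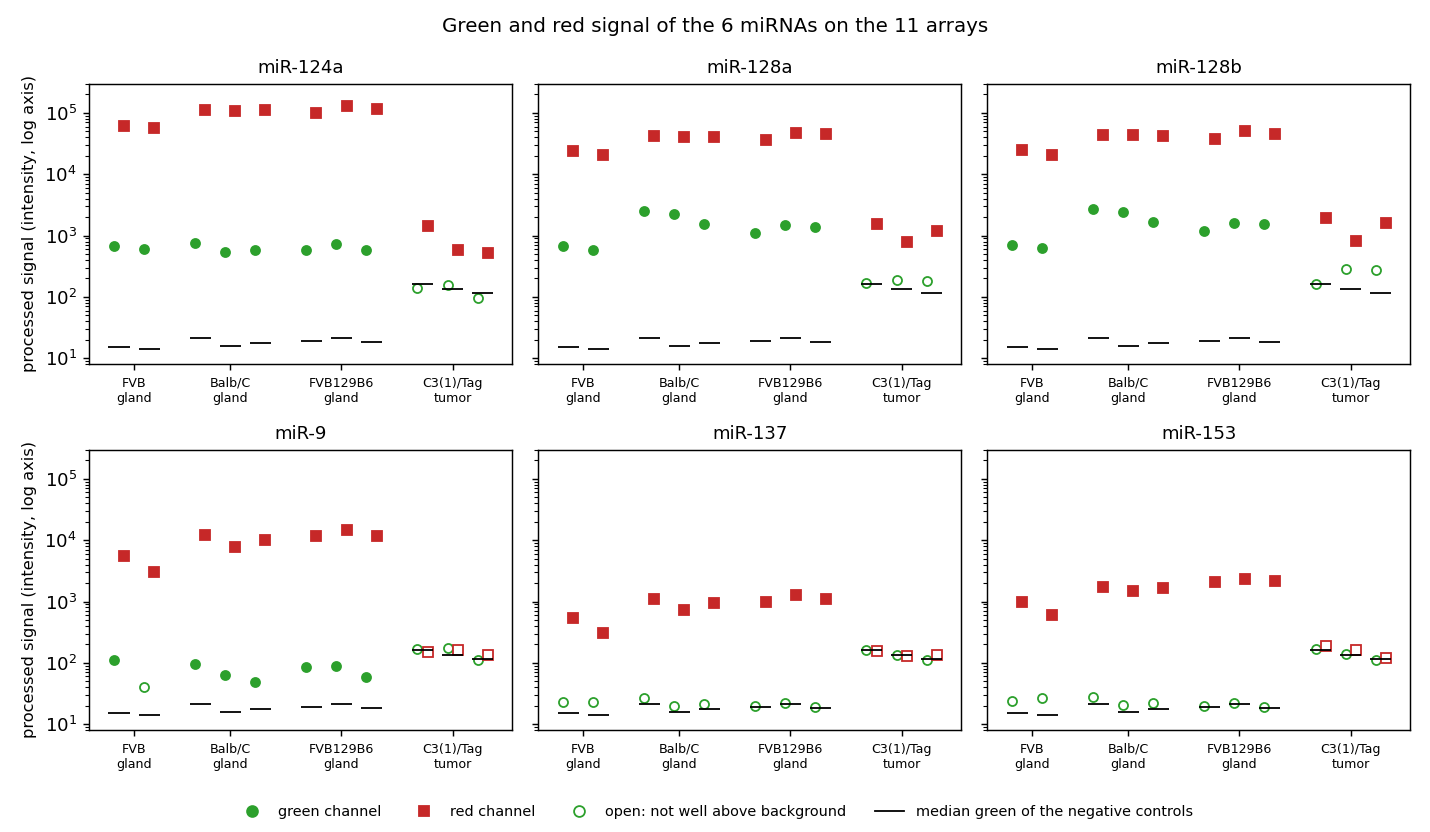
Green (circles) and red (squares) processed signal of the 6 miRNAs on each of the 11 arrays, as intensities on a log axis, with open symbols where the miRNA was not well above background and black lines at the median green signal of the negative controls. Green symbols of miR-137 and miR-153 lie near the control lines on all arrays, whereas the red symbols of all 6 members are filled on the 8 gland arrays.

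miR-124a gave nearly the same green intensity in the glands of all 3 strains. It was 666 and 605 in FVB glands, 757, 540 and 588 in Balb/C glands, and 582, 723 and 581 in FVB129B6 glands. The FVB values lie inside the range of the others. Before the program's background and dye corrections, the spot signal above the local background was 134.0 to 155.6 on the 8 arrays, and 155.6 and 144.9 in FVB glands. The 4 spots of an array ran, for example, from 628 to 751 on FVB replicate 1.

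The level of a miRNA is its log2 green signal minus the median log2 signal of its array, and on this scale FVB glands stood apart. The level of miR-124a was 1.44 and 1.68 in FVB glands, 0.38, 0.09 and 0.07 in Balb/C glands, and 0.16, 0.11 and 0.11 in FVB129B6 glands. FVB glands do not overlap the others, and those of Balb/C and FVB129B6 do. How many of all miRNAs separate FVB glands in this way was not counted. The mean level was 1.56 ± 0.17 (SD, n = 2) for FVB. It was 0.18 ± 0.17 (SD, n = 3) for Balb/C. It was 0.13 ± 0.03 (SD, n = 3) for FVB129B6. The difference in level from FVB was -1.38 for Balb/C and -1.43 for FVB129B6, which are 2.61-fold and 2.70-fold lower. With no scaling of the arrays these differences were -0.03 and -0.02.

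The scaling also moved most other miRNAs. Over the 261 miRNAs tested, the median difference in level from FVB was -0.48 for Balb/C and -0.39 for FVB129B6. Against that median, miR-124a was lower by a further 0.90 in log2 (1.87-fold) in Balb/C and 1.04 (2.06-fold) in FVB129B6 glands. Arrays were also put on their 75th percentile, or on the median of those miRNAs that every array measured. The median difference of all miRNAs then came to between -0.05 and 0.13. The distance of miR-124a from it, -0.90 and -1.04, cannot change under these scalings, because each subtracts a single value per array. Under normexp background correction the distance was -0.49 and -0.64. Balb/C and FVB129B6 glands, for which miR-124a was not put forward, differed by 0.05 (standard error 0.15, 95% confidence interval -0.30 to 0.41, adjusted p = 0.904 by limma with Benjamini-Hochberg adjustment). In this comparison 3.45% of the 261 miRNAs were called, and none of the 4 members tested.

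**Figure D2:**
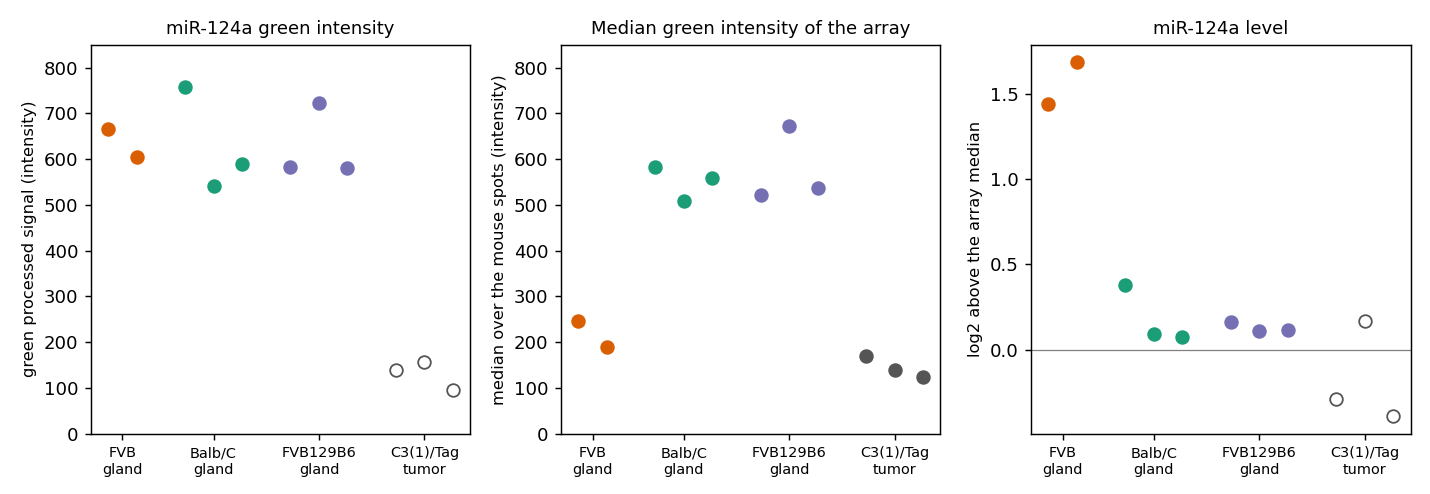
Green intensity of miR-124a (left), median green intensity of the array (middle) and miR-124a level in log2 above that median (right), 1 point per array, with open points where miR-124a was not well above background. The 8 gland arrays sit between 540 and 757 on the left, and the FVB arrays stand apart at 188.5 and 245.5 in the middle and at 1.44 and 1.68 on the right.

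**Figure D3:**
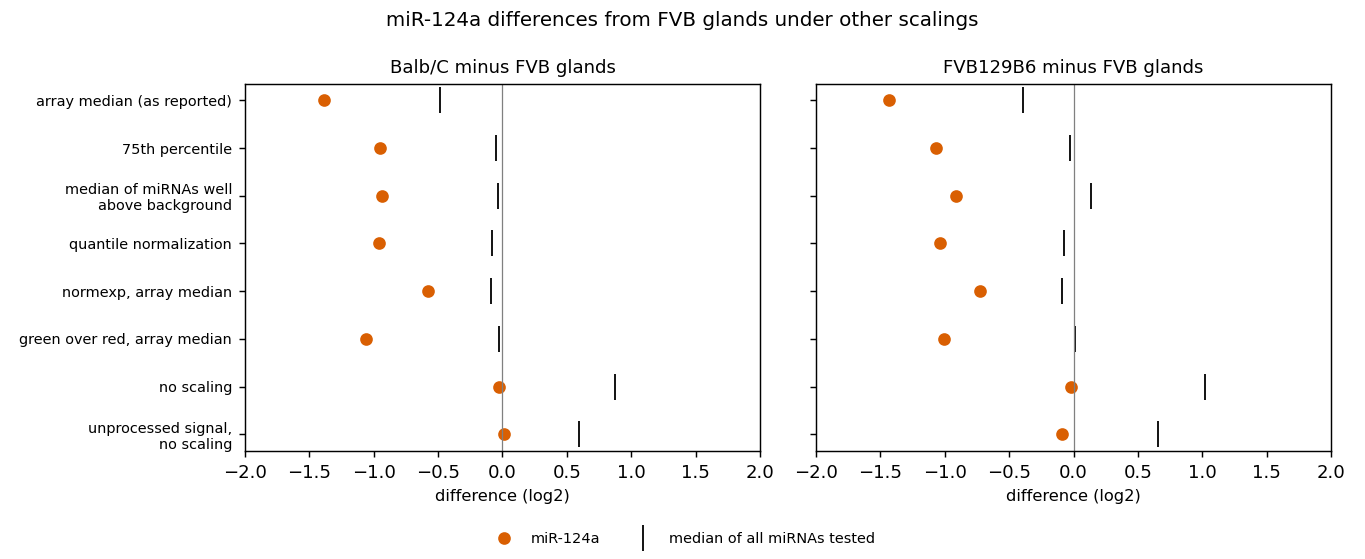
Log2 difference of miR-124a from FVB glands (points) for Balb/C (left) and FVB129B6 glands (right) under 8 ways of scaling the same arrays, with the median difference of the 261 miRNAs tested as a bar. The point lies left of the bar throughout, and close to 0 where arrays were not scaled. Scalings that subtract a single value per array cannot change the distance between point and bar.

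Of the lists for other cell types, skeletal muscle and red blood cells had shares of the green signal that set FVB glands apart. The part of any list in the values of miR-124a was not tested. The 3 skeletal muscle miRNAs on the array (miR-1, miR-133b and miR-206) took 0.113% to 0.502% of the green signal in FVB glands, 7.02% to 12.3% in Balb/C glands and 4.44% to 5.09% in FVB129B6 glands. All 3 were called higher than in FVB in both strains, beside 5.75% of all miRNAs for Balb/C and 8.05% for FVB129B6. The red blood cell miRNAs miR-144, miR-451 and miR-486 took 6.08% to 6.72% in FVB, 2.49% to 4.85% in Balb/C and 1.48% to 1.88% in FVB129B6 glands. Against FVB, 1 of these 3 was called lower for Balb/C and 3 for FVB129B6, beside 32.2% and 31.4% of all miRNAs. None of the 4 smooth muscle and stromal miRNAs (miR-143, miR-145, miR-199a, miR-214) or of the 4 leukocyte miRNAs on the array was called against FVB. Of the 7 epithelial miRNAs 2 were called lower for Balb/C, beside 32.2% of all 261 miRNAs, and none was called for FVB129B6, beside 31.4% lower and 8.05% higher.

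miR-128 was brightest in Balb/C glands. The green intensity of miR-128a was 676 and 572 in FVB glands, 2477, 2260 and 1540 in Balb/C glands, and 1103, 1494 and 1400 in FVB129B6 glands. Both FVB arrays lie below all others, and Balb/C lies above FVB129B6 with no overlap. The share of all miRNAs with such separations was not counted here. On the scaled level the FVB arrays, at 1.46 and 1.60, lay above FVB129B6, at 1.08, 1.15 and 1.38. Balb/C was at 2.09, 2.15 and 1.46, and its lowest array fell between the FVB arrays, within 0.01 of the lower one. miR-128b gave levels of 1.54 and 1.73 in FVB, 2.19, 2.23 and 1.58 in Balb/C and 1.20, 1.25 and 1.51 in FVB129B6 glands, with the lowest Balb/C array again between the FVB arrays.

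On the level as scaled here, no strain difference of miR-128 passed the test, but other scalings did call Balb/C against FVB. Balb/C minus FVB was 0.37 for miR-128a (95% confidence interval -0.19 to 0.93, adjusted p = 0.246) and 0.36 for miR-128b (adjusted p = 0.246). FVB129B6 minus FVB was -0.33 for miR-128a (confidence interval -0.89 to 0.24, adjusted p = 0.306) and -0.32 for miR-128b (adjusted p = 0.309). Balb/C minus FVB129B6 was 0.69 (standard error 0.22, adjusted p = 0.122) and 0.68 (standard error 0.21, adjusted p = 0.122), with means of 1.90 ± 0.38 and 1.21 ± 0.16 (SD, n = 3 each) for miR-128a. The direction against FVB depends on the scaling for FVB129B6, where miR-128a was 0.04 with the 75th percentile and 1.09 with no scaling. Balb/C was higher than FVB under every scaling run. The difference of miR-128a was called with the 75th percentile, at 0.80 (adjusted p = 0.0493), green over red, at 0.72 (0.0353), normexp, at 0.82 (0.0126), no scaling, at 1.72 (0.00116), and the unprocessed signal, at 1.58 (0.000618). It was not called with the median of measured miRNAs, at 0.82 (0.0582), or quantile normalization, at 0.38 (0.172). Against the median of all miRNAs, miR-128a was higher by 0.85 in Balb/C and by 0.06 in FVB129B6.

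miR-9 was dim, and its scaled level was higher in FVB glands. Its green intensity was 110.0 and 40.0 in FVB glands, 95.02, 64.3 and 48.9 in Balb/C glands, and 85.2, 90.5 and 58.9 in FVB129B6 glands, which overlap throughout. Its spots disagreed on some arrays, from 21.9 to 107 on FVB129B6 replicate 3. The level was -1.16 and -2.24 in FVB, -2.62, -2.98 and -3.51 in Balb/C and -2.61, -2.89 and -3.19 in FVB129B6 glands. Both FVB levels lie above all others, although on FVB replicate 2 the miRNA was not well above background. For this separation too, the share of all miRNAs was not counted. miR-137 and miR-153, at the background in every gland, were also higher in FVB on this scale, with mean levels of -3.22 and -3.07 against -4.82 to -4.56 in the other strains. Balb/C minus FVB was -1.34 (standard error 0.38, adjusted p = 0.0282) and FVB129B6 minus FVB was -1.20 (standard error 0.38, adjusted p = 0.0396). Against the median of all miRNAs the differences were -0.86 and -0.81, and with no scaling they were 0.01 and 0.21.

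miR-9 was thus the call among the 3 names tested against FVB besides miR-124a, which make 2 measurements with the miR-128 pair as 1. Of the 261 miRNAs 37.9% were called for Balb/C and 39.5% for FVB129B6, and nothing about the members can be read from so small a count beside these shares. Neither call was kept when arrays were scaled on the 75th percentile, with adjusted p = 0.151 and 0.181. Without FVB replicate 1 the differences were -0.80 and -0.66 with adjusted p = 0.139 and 0.20, and without FVB replicate 2 they were -1.88 and -1.74 with adjusted p = 0.0193 and 0.0162. The call against Balb/C was also lost without Balb/C replicate 2 (adjusted p = 0.0544) or 3 (0.065) or FVB129B6 replicate 2 (0.051), and with Balb/C replicates 2 and 3 averaged as 1 mouse, where it was -1.23 (0.0549). The call against FVB129B6 was lost without any of its 3 replicates (0.0593, 0.0952 and 0.0991) and without Balb/C replicate 2 (0.0501).

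**Figure D4:**
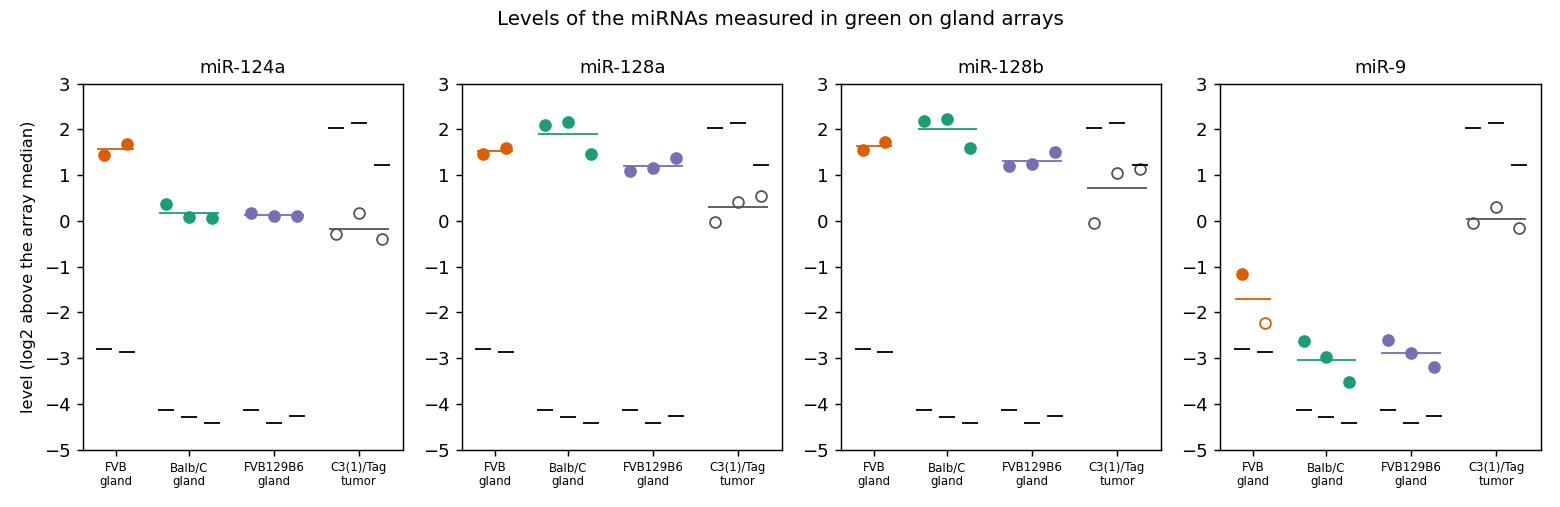
Levels in log2 above the array median of the 4 members measured in green on gland arrays, 1 point per array, with colored lines at the group means, open points where the miRNA was not well above background, and black ticks at the lowest level of any miRNA well above background on that array. FVB points lie apart from the other glands for miR-124a and miR-9, a separation not counted over all miRNAs, and all tumor points are open and below the ticks.

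miR-137 and miR-153 stayed at the green background of every gland array. The green intensity was 19.0 to 26.4 for miR-137 and 19.0 to 27.6 for miR-153 over the 8 arrays. These values are 1.03 to 1.64 times the median of the negative controls for miR-137 and 1.03 to 1.92 times for miR-153. No strain difference is given for this pair.

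No member could be ranked between tumors and glands. On the tumor arrays the green intensity of miR-124a was 138.8, 157.5 and 95.4, at 0.82 to 1.16 times the negative controls of the same array. That of miR-128a was 168, 185 and 183, and that of miR-128b was 163, 289 and 275, at 1.00 to 2.35 times the negative controls. miR-9, miR-137 and miR-153 gave 112 to 172, 112 to 161 and 112 to 170. These intensities exceed those of the same 3 miRNAs on gland arrays, as do those of the negative controls. The lowest level of any miRNA well above background was 1.23 to 2.13 on tumor arrays and -4.42 to -2.80 on gland arrays. The mean of the 3 tumor limits was 1.80. The Balb/C means of miR-128a and miR-128b, at 1.90 and 2.00, came above it but inside the range of the limits, and every other gland mean was below it, including miR-124a in FVB glands, at 1.56. No fold is therefore given.

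The fitted difference of tumors from the mean of the 3 gland strains has for this reason no direction that can be read. It was -1.23 for miR-128a (adjusted p = 0.000136), -0.94 for miR-128b (adjusted p = 0.00619) and 2.58 for miR-9 (adjusted p = 4.3e-06), in a comparison that called 90.4% of the 261 miRNAs tested. With the 75th percentile in place of the median it was 1.74 for miR-128a and 2.03 for miR-128b.

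In the red channel all 6 members had a measured signal on every gland array, with 32 of 32 spots each well above background. Which RNA was labeled for this channel is not given in the sources used here. Red values are therefore given by array and cannot be assigned to the RNA of the glands or tumors. The red intensity of miR-124a was 62098 and 55861 on FVB arrays, and 112690, 106990 and 111850 on Balb/C arrays. It was 98875, 127700 and 114480 on FVB129B6 arrays, and 0 of 32 spots on gland arrays were saturated. Both FVB values lie below all others, as do the red medians of the FVB arrays, at 598.5 and 527.5, among gland arrays. Scaled on the red median of the array, the levels of FVB, at 6.70 and 6.73, overlapped those of FVB129B6, at 6.55 to 6.72. Those of Balb/C, at 6.82 to 7.03, lay above both, a separation not counted over all miRNAs.

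The other members were dimmer in red but far from the background there. miR-128a ran from 20592 to 46581 and miR-128b from 20940 to 51249 over the gland arrays, and miR-9 from 3008 to 14921. miR-137 ran from 305 to 1291 and miR-153 from 610 to 2317, against 14.2 to 23.1 for the red medians of the negative controls. On the tumor arrays miR-124a, miR-128a and miR-128b were well above background in red on 3 of 3, at 518 to 1440, 785 to 1528 and 831 to 1906. miR-9, miR-137 and miR-153 were so on 0 of 3, at 121 to 192 in red. Of 12 tumor spots each, 7 had the red call for miR-124a, 11 for miR-128a and 12 for miR-128b. The brightest red negative control of a tumor array was at 371 to 2650, in the range of these signals.

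In red the differences from FVB arrays did not follow those in green for miR-9 and miR-124a, but kept their sign for the miR-128 pair. For miR-124a they were 0.19 for Balb/C and -0.08 for FVB129B6 in red, against -1.38 and -1.43 in green. On the scaled level miR-9 was lower than in FVB glands in green. In red it was higher than on FVB arrays, by 0.55 on Balb/C arrays (standard error 0.19, adjusted p = 0.118 by limma) and by 0.62 on FVB129B6 arrays (standard error 0.19, adjusted p = 0.046). This was the only call among the 5 members tested in red against FVB, beside 24.4% of 295 miRNAs for FVB129B6 and 5.42% for Balb/C. miR-153 was at 0.46 (adjusted p = 0.0651) and miR-137 at 0.43 (adjusted p = 0.119) for FVB129B6 minus FVB. The pair of miR-128 probes stayed within 0.19 of FVB in both strains, with adjusted p from 0.366 to 0.731.

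Green was a small share of red for all 6 members. The green signal of miR-124a was 0.50% to 0.67% of the red one in Balb/C and FVB129B6 glands and 1.07% and 1.08% in FVB glands. It was 2.78% to 5.97% for miR-128a and 0.49% to 2.00% for miR-9 over the 8 arrays. For miR-137 and miR-153 the green signal was at the background, which sets their ratio, and no rank is given for them. As the log2 of green over red, averaged over the 8 gland arrays, miR-124a had the lowest value of the 334 miRNAs, at -7.25 ± 0.46 (SD, n = 8), where the median of all was -0.26. miR-9 ranked 3 from the lowest at -6.94, with 1 of the 8 arrays not well above background in green, and miR-128a and miR-128b ranked 16 and 18. Other miRNAs in this ranking were at the green background too. Ranks across probes share the dye and labeling of their arrays, and are given as a description.

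**Figure D5:**
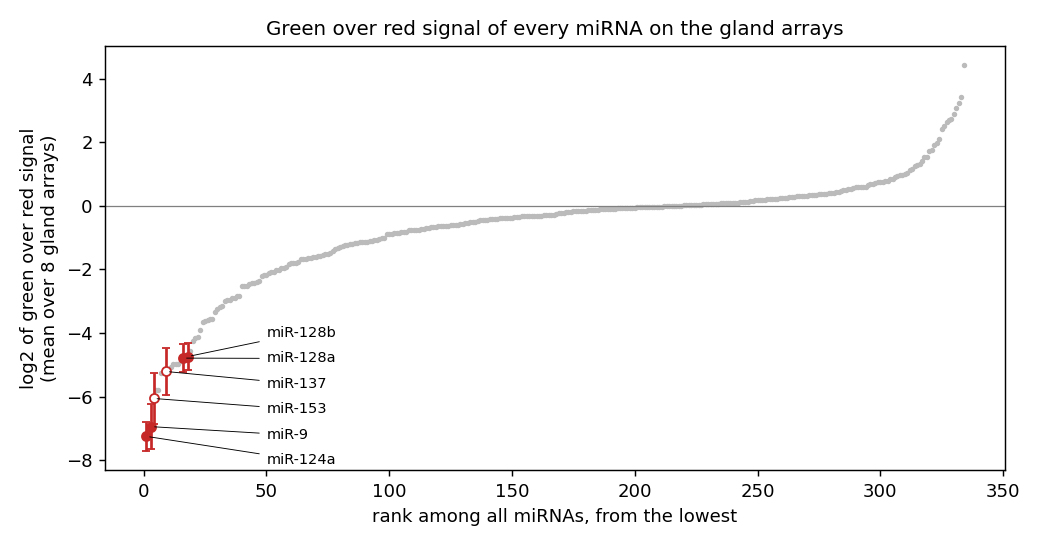
Mean log2 of green over red signal on the 8 gland arrays for each of the 334 miRNAs, ranked from the lowest, with the 6 members as red points and the SD over the 8 arrays as bars. Filled points run from -7.25 for miR-124a to -4.74 for miR-128b, the median of all miRNAs is -0.26, and the open points of miR-137 and miR-153 mark ratios set by the green background.

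The miRNAs whose levels followed miR-124a most closely over the 8 gland arrays were not the other members. With each miRNA set to its own mean, the root mean square difference in level from miR-124a was lowest for miR-491 (0.14 in log2), miR-762 (0.15), miR-125a (0.17), miR-148b (0.21) and miR-546 (0.21), out of 260 miRNAs with a median of 0.58. All 5 were well above background on all 8 arrays. miR-491 had a level of -0.51 and -0.50 in FVB, -1.74 to -1.70 in Balb/C and -1.88 to -1.70 in FVB129B6 glands, a difference from FVB of -1.22 and -1.28. miR-125a, a relative of the lin-4 family, differed from FVB by -1.29 and -1.42, and miR-148b by -1.20 and -1.21. Differences near those of miR-124a follow from the way these miRNAs were picked. miR-9 came in place 65 with a difference of 0.40, and miR-128a in place 174 with 0.71.

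Other miRNAs known to be enriched in brain gave a mixed picture. Of the 14 on the list 13 were on the array, and 9 of these were tested. For Balb/C 5 of the 9 were called lower than FVB and 1 higher, beside 32.2% and 5.75% of all 261 miRNAs. Among these 5, miR-129-5p was well above background on no Balb/C array. For FVB129B6 5 were called lower and 0 higher, beside 31.4% and 8.05%. The median of the 9 differences was -0.89 for Balb/C and -1.18 for FVB129B6, beside medians of -0.48 and -0.39 over all miRNAs. Balb/C and FVB129B6 glands did not differ in any of the 9 by the test. The list was chosen with results of these data known.

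The largest of these differences belonged to miR-139, miR-129-5p, miR-138 and miR-132. miR-139, which restrains signaling through several growth pathways, had levels of 0.12 and 1.38 in FVB glands against -1.31 to -0.67 in Balb/C and -1.43 to -0.98 in FVB129B6. Its difference was -1.93 in FVB129B6 (standard error 0.38, adjusted p = 0.00589). miR-138, which acts on dendritic spines in neurons, had levels of 0.30 and 1.04 in FVB, -1.15 to -0.77 in Balb/C and -0.60 to -0.43 in FVB129B6 glands, and differed by -1.67 in Balb/C (adjusted p = 0.00458) and -1.18 in FVB129B6 (adjusted p = 0.00721). For both, the scaled levels of FVB glands lie above all the others. On this scale the median difference of all 261 miRNAs from FVB was -0.48 for Balb/C and -0.39 for FVB129B6. The share of all miRNAs with such a separation was not counted. miR-129-5p was well above background on only 4 of the 8 arrays, and on no Balb/C array. Its difference of -1.81 in Balb/C (adjusted p = 0.00543) therefore sets FVB glands against the background of the Balb/C arrays. The mean levels were -2.58 and -4.39, and no fold can be read from them. miR-132, induced by neuronal activity and also needed for outgrowth of mammary ducts, differed by -0.89 in Balb/C (adjusted p = 0.0467) and -1.28 in FVB129B6 (adjusted p = 0.0112). miR-218, an miRNA of motor neurons, was the 1 member of the list that was called higher than in FVB, by 0.81 in Balb/C (adjusted p = 0.0473). None of the 13 was well above background on a tumor array, where only 15 to 64 of all 334 miRNAs were.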

How the data were processed

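Total RNA was hybridized to custom 2-color miRNA arrays. The authors deposited each scan as spot intensities from the Feature Extraction program, background subtracted and dye normalized, with a quality call for each spot, and a table of log2 values after global median normalization. Here the log2 green intensity minus the array median over 1336 spots was averaged over the spots of a miRNA, without outlier spots. The methods' filter on MAS5 calls could not be repeated. A miRNA was tested where it was well above background on at least 3 arrays. limma 3.58.1 in R 4.3.3 fitted strain means over 8 gland arrays, or 4 group means over all 11, with Benjamini-Hochberg adjustment at a threshold of 0.05. The methods name no test for strains. In simulated data of 261 miRNAs, changes of 1 in log2 were found for 70% (Balb/C minus FVB) and 72% (tumors). Those data held independent normal values with the observed spread, 50 changed miRNAs and no background limit. The share for tumors therefore does not carry over to the tumor arrays, where most miRNAs were not well above background. Besides the members, named miRNAs are the 5 nearest to miR-124a and up to 4 called brain-enriched miRNAs. Alternatives comprise other scalings, backgrounds, filters, the deposited table, single arrays left out and the replicate number as a block. Members and lists were chosen with earlier results of these data known. Arrays give no read depth, and their number limits the precision.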

Additional observations from a re-analysis of the deposited data

Results flagged for a closer look

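The red channel, which the study's comparisons did not use, held signal for every member on the gland arrays. The median red intensity over the 8 gland arrays was 109400 for miR-124a, 40910 for miR-128a, 42840 for miR-128b, 10790 for miR-9, 961 for miR-137 and 1687 for miR-153. The negative controls had red medians of 14.2 to 23.1 on the same arrays. For miR-137 and miR-153 this was the only channel with a signal well above background. On the tumor arrays the median was 576 for miR-124a, 1177 for miR-128a and 1610 for miR-128b, and 150.6, 134.8 and 161.1 for miR-9, miR-137 and miR-153, beside negative control medians of 122 to 147. The brightest red negative controls there reached 371 to 2650. Groups of 2 and 3 arrays were not tested for a sample far from the rest.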

How the results depend on the processing

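Scaling decides the size of the differences from FVB glands and, in the cases listed below, their direction. For tumors it also decides the direction. With 3 members tested besides miR-124a, the miR-128 probes counted as 2, 1 was called for Balb/C minus FVB. The count was 2 with the 75th percentile, with no scaling and with the unprocessed signal (added after the data were seen), and 3 with normexp, with green over red and, of 5 tested, with no filter. It was 0 with the median of miRNAs measured on all arrays, a filter on every array, the Balb/C pair averaged and in the red channel (added), and 0 to 1 with single arrays left out. For FVB129B6 minus FVB, also 1, the count was 2 with no scaling and with the unprocessed signal, 3 with no filter, 0 with the 75th percentile, the median of miRNAs measured on all arrays and a filter on every array, and 0 to 1 with single arrays left out. For Balb/C minus FVB129B6 it was 0, and 0 to 1 with single arrays left out: without Balb/C replicate 3 miR-128a was called. For tumors it was 3, but 0 with quantile normalization, 1 with the floor, 2 with the unprocessed signal and 5 of 5 with no filter, and 3 to 3 with single arrays left out. Detection of 31 of 48 member and array pairs in glands and 0 of 18 in tumors became 48 and 9 in red.

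Signs turned as follows. miR-124a minus FVB was 0.0081 in Balb/C with the unprocessed signal and 0.19 in red. miR-9 minus FVB was 0.012 in Balb/C and 0.21 in FVB129B6 with no scaling, and 0.55 and 0.62 in red. FVB129B6 minus FVB, -0.33 and -0.32 for miR-128a and miR-128b, was 1.09 for both with no scaling, 0.92 and 0.97 with the unprocessed signal, 0.04 and 0.05 with the 75th percentile, 0.20 and 0.21 with the median of measured miRNAs, 0.14 and 0.18 with normexp, and 0.12 and 0.09 with green over red. Only the first 2 of these settings called it. Tumors minus glands, in the order miR-124a, miR-128a and miR-128b, was 2.18, 1.74 and 2.03 with the 75th percentile, 1.74, 1.30 and 1.59 with the median of miRNAs measured on all arrays, 4.36, 1.93 and 1.99 with green over red, and 1.17, 0.25 and 0.14 with the floor. It was 0.28 for miR-128b with quantile normalization and -0.18 for miR-9 with the unprocessed signal. The cause was not tested. With the replicate number as a block, 1 member was called in each difference from FVB, 0 between Balb/C and FVB129B6 and 3 for tumors, so the block changed no count. The labels state no pairing by these numbers. Over 15 pairs of arrays that share a number across groups, the mean correlation of their deviations from the group means was 0.04. Single pairs ran from -0.28 to 0.42, so that this mean cannot show whether arrays were paired.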

Other observations

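The low ratio of green to red on gland arrays was shared by miRNAs of other tissues, named here after their values were seen. miR-122a, known from liver, had the second lowest value of log2 green over red, at -7.10. miR-499 and miR-208, both encoded in myosin heavy chain genes of heart muscle, were at -5.79 each (with green well above background on 3 and 0 of the 8 arrays, so that the green background bears on these ratios), and miR-449, miR-34c and miR-34b, known from ciliated cells and testis, at -5.27, -5.24 and -5.16. In all, 20 of the 334 miRNAs were well above background in red on all 8 gland arrays and in green on none, miR-137 and miR-153 among them. The 13 other brain-enriched miRNAs on the array had a median of -1.82, with 10 below the median of all miRNAs and 2 of them, miR-132 and miR-344, among the lowest 33. miR-344 was well above background in green on 0 of the 8 gland arrays, so that the green background bears on its ratio. The 7 epithelial miRNAs lay at the other end, from 0.93 to 3.24 with a median of 1.98.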
